A study of Mus musculus with 22 samples.

Results

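Cytosolic ribosomal protein genes encode the proteins of the ribosome outside mitochondria, and 78 of them were followed here across 22 RNA-seq libraries of mouse thymocytes. They are the protein-coding genes named Rpl or Rps with a number and, at most, a short suffix, at 1 FPKM or more in at least 3 libraries. FPKM counts fragments per kilobase of gene, scaled to the fragments sequenced in a library. Of 43430 genes in the tables, 80 had such a symbol; 47 of the 78 that reached the level belong to the large subunit and 31 to the small one. The study asked what the loss of the transcription factor E2a, encoded by Tcf3, does to CD45.1+ CD4+CD8+ thymocytes. All groups carried the floxed allele E2aF/F; the controls had no Cre (3 groups of 3 libraries). VavCre E2aF/F mice were sampled at 4 weeks (3 libraries) and 8 weeks of age (3 libraries), and LckCre E2aF/F mice at 4 weeks (3 libraries). A further 4 libraries, labelled 8 weeks, came from VavCre E2aF/F mice that were sublethally irradiated and given wild-type bone marrow 4 weeks earlier.

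Vav-driven Cre acts in blood-forming cells from the stem cell stage onward, whereas Lck-driven Cre acts in developing T cells, which is later. The sources used here do not say which cells of the transplanted mice, those of the host or of the donor marrow, carry CD45.1. Tcf3 was at 1.21 to 2.32 FPKM in the transplanted libraries and 1.23 to 2.13 FPKM in the untransplanted 8-week Vav knockouts. In the 8-week controls it was at 7.49 to 7.59 FPKM. The origin of the sampled cells was not tested. No animals are named for the replicate libraries, and all p-values therefore rest on a spread between libraries that may be technical. In bulk samples, fewer cells of a type and less RNA per cell cannot be told apart.

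Each ribosome is built from a large subunit, which forms peptide bonds, and a small subunit, which reads the messenger RNA. Their proteins are needed in matched amounts, and their genes are among the most highly transcribed in growing cells. Their messenger RNAs start with a pyrimidine tract that lets mTOR signalling and LARP1 set their translation, and MYC is known to raise their transcription. Inherited loss of 1 copy of several of them causes Diamond-Blackfan anaemia, and RPL5, RPL10, RPL11 and RPL22 are mutated in some T cell leukaemias.

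Several properties of the libraries bear on every result. Tcf3 lay between 6.39 and 8.22 FPKM in the 9 control libraries and between 1.15 and 2.32 FPKM in the 13 knockout libraries, with no overlap; the part of the gene that Cre removes is not stated in the labels. All 10 markers of double-positive thymocytes averaged 1 FPKM or more in every group. Their summed level was 4570 to 4944 FPKM in the 8-week controls, 2204 to 2477 FPKM in the 8-week Vav knockouts and 1372 to 3456 FPKM in the transplanted mice, and at 4 weeks 4604 to 4753 FPKM in the Vav controls, 3310.3 to 3961 FPKM in the Vav knockouts, 4551 to 4768 FPKM in the Lck controls and 4214 to 4421 FPKM in the Lck knockouts. The summed level of 3 early thymocyte markers (Il2ra, Kit and Cd44) was 2.26 to 2.78 FPKM, 5.38 to 25.2 FPKM and 3.69 to 129.9 FPKM in the same 8-week groups, and 2.13 to 2.52 FPKM and 13.6 to 31.1 FPKM in the 4-week Vav controls and knockouts. At 4 weeks Il2ra carried most of that sum: in the Vav knockouts Kit was at 0.0315, 0.0202 and 0.0464 FPKM against 0.238, 0.171 and 0.143 FPKM in the controls, and Cd44 at 0.0869, 0.346 and 0.0814 FPKM against 0.152, 0.150 and 0.143 FPKM. At 8 weeks the summed level of 5 mature T cell markers was 26.3 to 30.4 FPKM, 46.9 to 69.8 FPKM and 35.7 to 152 FPKM. At 4 weeks it was 20.4 to 21.1 FPKM in the Vav controls and 38.4 to 40.8 FPKM in the Vav knockouts. There 5 of 5 rose, beside 7.63% of all genes called higher. In the Lck groups the sum was 25.3 to 29.2 FPKM in the controls and 29.1 to 31.3 FPKM in the knockouts. Of 4 markers tested after Lck-Cre 1 was called higher, beside 0.201% of all genes. The 1 on chromosome 15 had a log2 fold change of -0.49 there. In the 8-week Vav knockouts 0 of the 5 mature markers were called, beside 4.65% of all genes called higher and 4.45% lower. Of their log2 fold changes 4 were above 0 and 1 below (-0.29). The largest, 2.68, was that of the 1 marker on chromosome 15. In the transplanted mice 0 of the 5 were called, beside 4.59% of all genes called higher and 4.6% lower, and all 5 were above 0. Of 5 B cell markers only Ighm averaged 1 FPKM or more, and the sum of the 5 at 8 weeks was 179 to 214 FPKM, 95.2 to 128 FPKM and 96.2 to 122.7 FPKM; 2 of the 5 were at 0 in all 8-week Vav knockouts. At 4 weeks the B cell sum was 162 to 177 FPKM in the Vav controls and 68.95 to 137 FPKM in the Vav knockouts. Markers of macrophages and granulocytes, dendritic cells, stroma and red cells summed to at most 18.5, 7.41, 2.41 and 72.5 FPKM in any library. Transplanted replicate 3 stood apart from the other 3 transplanted libraries: Myc was 1.47 FPKM against 23.00, 21.3 and 9.34, and Cd4 was 389 FPKM against 96.8, 183 and 152. The part of these differences in the results on ribosomal protein genes was not tested.

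In the controls the members spanned a wide range of levels. Their mean over the 9 control libraries lay between 5.54 and 1170 FPKM, with a median of 79.2 FPKM and 17 members above 300 FPKM, counted over 77 members without Rpl3l. Among the highest means over all 22 libraries were those of the small-subunit gene Rps27 (1341 FPKM) and the large-subunit gene Rpl8 (968 FPKM). The lowest belonged to 3 paralogues named after a parent gene: Rpl3l at 0.380 FPKM, Rpl22l1 at 7.40 FPKM and Rps27l at 11.1 FPKM. The order of the members hardly moved between groups, with Spearman's rho between 0.974 (transplanted mice) and 0.996 (Lck controls) against the 4-week Vav controls over 77 genes. These levels share gene lengths and library scaling, and 76 of the 77 members share at least 1 stretch of 50 bases with another gene, usually a processed pseudogene. The median member shared 23.5% of its stretches, and Rpl35 shared 84.0%, so the level of a single member is uncertain.

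The threshold left out a pair of paralogues. Rpl10l, a testis copy of Rpl10, was listed at 0 in all 22 libraries. Rpl39l, a copy of Rpl39, reached 1 FPKM in 1 library only, where it stood at 25.4 FPKM (8-week Vav knockout replicate 2), and at most 0.371 FPKM elsewhere. Just inside was Rpl3l, the muscle form of Rpl3, at 1 FPKM or more in 3 libraries. These were 8-week Vav knockout replicates 1 and 3 (1.28 and 1.15 FPKM) and transplanted replicate 3 (2.22 FPKM, its highest). It thus passed the threshold only through groups where it was high, and its direction at 8 weeks is no separate result. Rpl3l was too low for the test at 4 weeks, where 77 members were tested; all 78 were tested at 8 weeks.

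The starts of the members held sequence features in common, which are shown here because the genes moved together. RefSeq promoters (GRCm38.p6, 250 bases before to 50 bases after the start) matched 59 of the 78 members, and both strands were searched. The core of ETS factor sites, CCGGAAG, was present in 22 of 59 members (37.3%) and in 9.12% of 27025 promoters of the same length. The palindromic element CTCGCGAGA was present in 6 (10.2%) against 0.718%, and the first 5 transcribed bases were all C or T in 14 (23.7%) against 4.36%. These bases were counted from the annotated RefSeq start, and whether thymocytes use that start was not tested. The MYC-type E-box CACGTG was present in 5 (8.47%) against 7.24%, and TATAAA in 5 (8.47%) against 14.2%. The E-boxes bound by E proteins were present in 3 (5.08%, CAGCTG) and 7 (11.9%, CACCTG), against 16.1% and 20.03%. Matches of different motifs may overlap and were counted motif by motif, and a match is a description of letters. The 100 bases before the start are given 5′ to 3′ for Rpl37, Rpl15, Rpl12 and Rps6, which hold 1 or both of the first motifs, and for Rpl19 and Rps27, which were among the members with the smallest values at 4 weeks. Capitals mark CCGGAAG or its complement CTTCCGG, and TCTCGCGAGA, which holds CTCGCGAGA on both strands.
Rpl37 (chr15:5116513-5116612, plus strand): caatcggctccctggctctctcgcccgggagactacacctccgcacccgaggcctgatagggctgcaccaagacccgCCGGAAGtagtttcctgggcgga
Rpl15 (chr14:18270987-18271086, minus strand): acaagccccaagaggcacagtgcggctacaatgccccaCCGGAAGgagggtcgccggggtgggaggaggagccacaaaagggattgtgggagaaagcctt
Rpl12 (chr2:32961612-32961711, plus strand): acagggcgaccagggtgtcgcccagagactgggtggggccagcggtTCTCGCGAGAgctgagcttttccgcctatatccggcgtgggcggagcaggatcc
Rps6 (chr4:86857368-86857467, minus strand): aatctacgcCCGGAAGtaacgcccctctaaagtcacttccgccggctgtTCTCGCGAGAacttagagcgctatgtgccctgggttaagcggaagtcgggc
Rpl19 (chr11:98026610-98026709, plus strand): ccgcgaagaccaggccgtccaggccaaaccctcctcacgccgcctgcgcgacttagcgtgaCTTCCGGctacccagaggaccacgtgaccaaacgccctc
Rps27 (chr3:90213649-90213748, minus strand): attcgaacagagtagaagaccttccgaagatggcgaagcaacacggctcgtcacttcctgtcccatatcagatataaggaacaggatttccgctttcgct
Rpl37 and Rpl19 both hold the ETS core, and their values differed: the log2 fold change of the 8-week Vav knockouts was 1.60 for Rpl37 and 0.62 for Rpl19. Over the matched members, the median 8-week log2 fold change was 1.02 with the core (22 genes) and 1.03 without it (37 genes).

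The members' share of all FPKM summarises the pattern of the whole set. At 4 weeks it was 6.61, 7.35 and 7.21% in the 3 Vav controls and 7.73, 9.74 and 8.49% in the 3 Vav knockouts. In the Lck table it was 6.54, 6.13 and 6.57% in the controls and 6.98, 6.33 and 6.97% in the knockouts. On this share the Vav groups did not overlap, whereas the Lck groups did. As a share of the FPKM of protein-coding genes, the Lck controls stood at 7.62, 7.34 and 7.82% and the Lck knockouts at 8.11, 8.27 and 8.83%, without overlap. The non-coding RNA Gm23935 was at 1365, 8134 and 3162 FPKM in the Lck controls and 844, 22949 and 18534 FPKM in the Lck knockouts, and the 10 highest genes held 7.65, 10.4 and 9.43% and 8.02, 16.6 and 14.2% of all FPKM. Lck knockout replicates 2 and 3 were the highest for both, which lowers every other gene's share of all FPKM there. At 8 weeks it was 6.94, 6.93 and 7.07% in the controls and 12.4, 12.8 and 14.3% in the Vav knockouts. In the transplanted mice it was 14.4, 12.4, 6.11 and 10.8%. All 3 of the 8-week knockouts and 3 of the 4 transplanted libraries lay above every control, and transplanted replicate 3 lay below all of its controls.

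**Figure D1:**
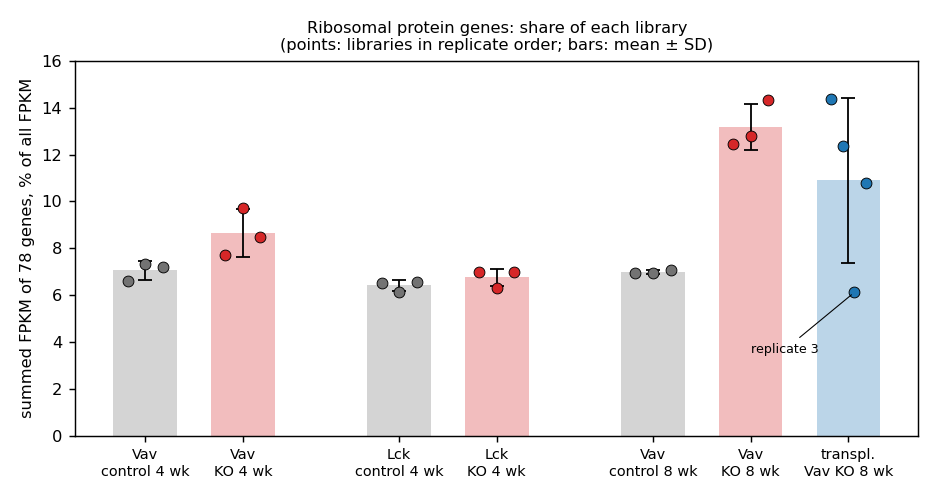
Summed FPKM of the 78 ribosomal protein genes as percent of all FPKM (vertical axis) in the 7 groups, with each library as a point and the mean ± SD as a bar. The 8-week Vav knockouts sit between 12.4% and 14.3%, above their controls at 6.93% to 7.07%, and transplanted replicate 3 sits at 6.11%.

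Loss of E2a through Vav-Cre was accompanied at 4 weeks by a modest, broad increase. Of 77 members tested with limma on log2(FPKM + 1), 29 rose and 0 fell at an adjusted p under 0.05, where 7.63% of all 10828 genes tested were called higher and 6.08% lower. At an unadjusted p under 0.05, 60 members were higher and 0 lower, beside 15.7% and 14.2% of all genes. All 77 log2 fold changes were above 0, between 0.08 and 0.74, with a median of 0.32; the median of all genes was -0.01. In 61 members every knockout library exceeded every control, against 19.2% of all genes; the reverse held for 0 members and 18.7% of all genes. The members also moved together within a group. Control replicate 1 was below the control mean for all 78 members and control replicate 2 above it for 77. Counts of members in 1 direction, here and below, are therefore not separate observations. Of the large-subunit genes 21 of 46 rose, and of the small-subunit genes 8 of 31, with medians of 0.35 and 0.31.

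The 6 called members with the largest 4-week rise came from both subunits. Rps26 (chr10:128624534-128626747, minus strand), a small-subunit protein at the messenger RNA exit channel and a Diamond-Blackfan anaemia gene, was at 414, 509 and 487 FPKM in the controls and 769, 861 and 719 FPKM in the knockouts. The knockouts were all above the controls, with a log2 fold change of 0.74 ± 0.12 (SE, n = 3 and 3) and an adjusted p of 0.0111 from limma. Rpl35 (chr2:39001580-39005624, minus strand), a large-subunit protein near the peptide exit, went from 62.5, 71.1 and 67.5 FPKM to 117, 100.1 and 102 FPKM, a log2 fold change of 0.66 ± 0.08 (limma adjusted p = 0.00546). Its groups did not overlap, but most of its sequence is shared with other genes. Rpl8 (chr15:76904078-76906314, plus strand) went from 608, 692 and 666 FPKM to 1011, 992 and 991 FPKM (0.61 ± 0.09, limma adjusted p = 0.00867). It is a core protein next to the peptidyl transferase centre, and its 3 knockout libraries lay within a narrow band. Rps2 (chr17:24718116-24721929, plus strand), at the messenger RNA entry of the small subunit, rose by a log2 fold change of 0.57, Rpl3 by 0.57 and Rpl30 by 0.52, with limma adjusted p-values of 0.0123, 0.0294 and 0.0113. Members with the smallest values included Rpl35a (0.08), Rps27 (0.10) and Rpl19 (0.11), none of which was called. Other short protein-coding genes, of at most the members' median exon length, had a median of 0.07 over 566 genes. The count of called members fell to 4 without control replicate 3, to 9 without control replicate 1 or control replicate 2, and to 15 without knockout replicate 3; it was 17 with all libraries scaled to the same FPKM sum.

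**Figure D2:**
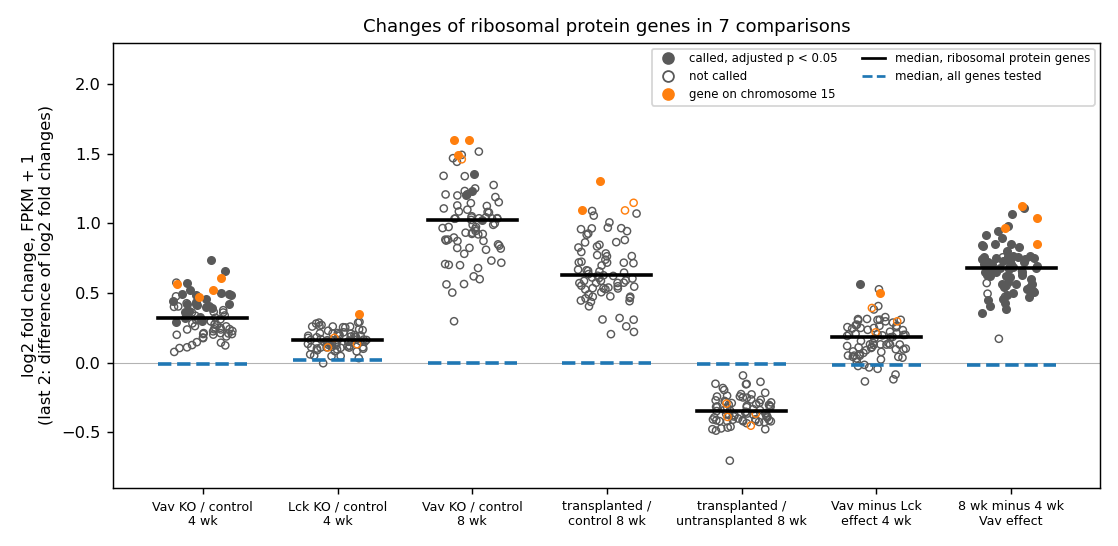
Log2 fold change on the FPKM + 1 scale (vertical axis; a difference of log2 fold changes for the last pair) of each ribosomal protein gene in 7 comparisons. Filled points passed an adjusted p under 0.05, orange marks chromosome 15, and lines give the median of the ribosomal protein genes (0.32, 0.16, 1.03, 0.63, -0.35, 0.18 and 0.68 from left to right) and of all genes tested.

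After Lck-Cre, the same genes showed small values. Only Rpl3 of 77 members rose (0.201% of 10946 genes were called higher), and 0 fell (0.804% called lower). At an unadjusted p under 0.05, 44 members were higher and 0 lower, beside 7.79% and 5.94% of all genes. Rpl3, a large-subunit protein that reaches the peptidyl transferase centre, was at 47.6, 45.1 and 48.5 FPKM in the Lck controls and 59.1, 58.5 and 63.02 FPKM in the knockouts. Its log2 fold change was 0.35 ± 0.05 with a limma adjusted p of 0.0375, and its groups did not overlap. The call was lost when any 1 library was left out. Next by p came Rpl12 (0.26, limma adjusted p = 0.0504). The log2 fold change was above 0 in 76 of 77 members, with a median of 0.16 against 0.02 for all genes; the exception was Rpl34 at -0.005. In 46 members every knockout library exceeded every control, against 11.7% of all genes; the reverse held for 0 members and 8.27% of all genes.

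Whether Vav-Cre and Lck-Cre differed in effect was tested as an interaction over 12 libraries. It was called above 0 for 2 of 77 members, Rpl35 (0.56 ± 0.11, limma adjusted p = 0.017) and Rpl8 (0.50 ± 0.10, limma adjusted p = 0.0192), and below 0 for none; 1.65% of 10541 genes were called in each direction. Rpl30 was next (0.39, limma adjusted p = 0.0563). The estimate was above 0 in 70 members with a median of 0.18, and 17 members had an unadjusted p under 0.05, all above 0, beside 7.52% of all genes above and 9.35% below 0. Below 0 the smallest p-values were those of Rpl29 (-0.14), Rpl39 (-0.12) and Rpl26 (-0.09), with limma adjusted p-values of 0.615, 0.794 and 0.809. Without Vav control replicate 3 no member was called, without Vav knockout replicate 1 the count was 5, and without Lck control replicate 1, Lck control replicate 3 or Lck knockout replicate 2 it was 1.

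By 8 weeks the Vav knockouts held about 2-fold higher FPKM of these messages than their controls. In all 77 members other than Rpl3l each of the 3 knockout libraries exceeded each of the 3 controls, against 28.9% of 11632 genes (28.7% had every knockout below every control). Rpl3l did so too, but it passed the level threshold only through 8-week Vav knockout and transplanted libraries. Counted as ratios of mean FPKM, 73 of 77 members were at 1.5 times the control mean or more and 42 at 2 times or more. Log2 fold changes lay between 0.30 (Rpl7l1) and 1.60 (Rpl3), with medians of 1.03 for the large and 1.03 for the small subunit and of -0.005 for all genes. In the limma fit of all 10 libraries of the 8-week table, 7 of 78 members rose and 0 fell at an adjusted p under 0.05, beside 4.65% of all genes called higher and 4.45% called lower, while 68 members were higher and 0 lower at an unadjusted p under 0.05, beside 14.7% of all genes in each direction. That fit pools the spread of 3 groups, and the transplanted group had the widest: the median coefficient of variation of the members was 3.66% in the controls, 8.69% in the knockouts and 40.6% in the transplanted mice. With the 2 groups alone 77 of 77 members were called, and without transplanted replicate 3, an alternative chosen after seeing the data, 76 of 77, beside 22.9% and 16.6% of all genes called higher (22.8% and 14.2% called lower). With library quality weights 78 of 78 were called, beside 24.8% of all genes. Leaving out any 1 control or Vav knockout library from the full fit left 1 member called.

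The 7 called genes were Rpl3, Rpl37, Rpl30, Rpl12, Rpl17, Rps24 and Rpl24. Rpl30 (chr15:34440505-34443640, minus strand), which takes part in a bridge between the subunits, was at 26.1, 23.1 and 23.3 FPKM in the controls and 69.7, 68.9 and 70.4 FPKM in the knockouts. The knockout libraries were nearly alike, with a log2 fold change of 1.49 ± 0.21 and the smallest adjusted p of the members (limma, 0.00408). Rpl37 (chr15:5116645-5119140, plus strand), a small zinc-binding protein of the large subunit, stood at 148, 144 and 145 FPKM and 452, 398 and 484 FPKM (1.60 ± 0.35, limma adjusted p = 0.0251). Rpl3 (chr15:80077791-80091868, minus strand) stood at 46.1, 44.1 and 43.7 FPKM and 133, 132 and 148 FPKM, 3.09 times the control mean, with a log2 fold change of 1.60 ± 0.42 (limma adjusted p = 0.0442). For both genes the groups lay far apart, with the knockouts on top. Rpl12, a protein of the stalk base, had a log2 fold change of 1.35, Rpl17, at the peptide exit, of 1.23, Rps24, a Diamond-Blackfan anaemia gene, of 1.21, and Rpl24, at the subunit interface, of 1.03, with limma adjusted p-values between 0.043 and 0.0492. Rpl7l1, a paralogue of Rpl7, had the smallest value: it stood at 32.9, 28.7 and 32.5 FPKM in the controls and 40.2, 39.7 and 36.2 FPKM in the knockouts, 1.23 times the control mean.

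**Figure D3:**
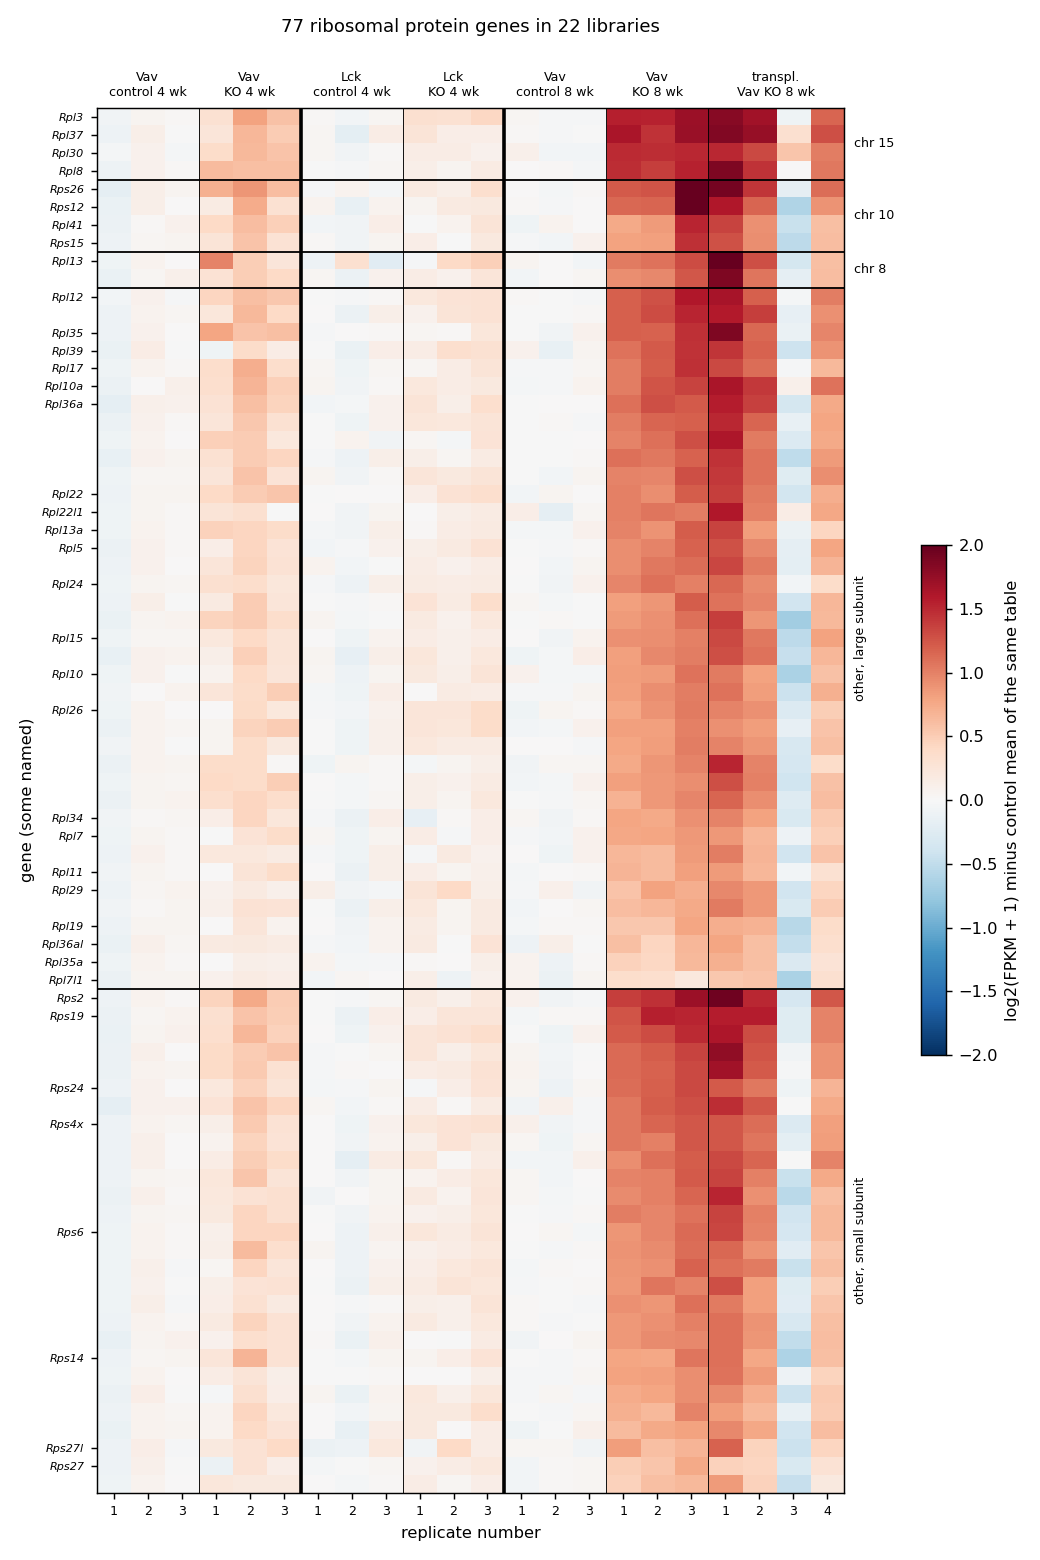
Level of 77 ribosomal protein genes (rows; Rpl3l left out as too low) in 22 libraries (columns, by group and replicate number), as log2(FPKM + 1) minus the control mean of the same table; red is above and blue below the controls. Every gene is red in the 8-week Vav knockouts, transplanted replicate 3 is near or below the controls for most genes, the rows of chromosomes 15, 10 and 8 are set apart at the top, and only some rows carry names.

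The Vav effect was larger at 8 weeks than at 4 weeks. The interaction over 12 libraries, which share no controls between ages, was called above 0 for 70 of 77 members and below 0 for none, beside 8.87% of 10489 genes called above 0 and 9.37% called below. All 77 estimates were above 0, between 0.17 and 1.13, with a median of 0.68 on the log2 scale against -0.02 for all genes. The largest were those of Rpl37 (1.13 ± 0.16), Rpl39 (1.11 ± 0.18), Rps12 (1.07 ± 0.33), Rpl3 (1.04 ± 0.15), Rps19 (0.98 ± 0.13) and Rpl30 (0.97 ± 0.11), with limma adjusted p-values from 0.000805 to 0.0481. Rpl39, which lines the peptide exit tunnel, had shown little at 4 weeks: its knockouts stood at 62.8, 86.9 and 74.4 FPKM against 61.04, 74.1 and 66.4 FPKM in the controls, and the groups overlapped. At 8 weeks they stood at 107, 118 and 137 FPKM against 53.00, 45.1 and 51.8 FPKM, with no overlap. Across the 77 members the log2 fold changes at the 2 ages had a Pearson r of 0.785 and a Spearman rho of 0.779, as a description across genes that share lengths and library scaling and are not independent. Age and table cannot be told apart here, since each age is a table of its own, and the same holds for the Cre driver at 4 weeks. The same description for the 4-week Vav and Lck effects gave an r of 0.241.

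In the transplanted mice 3 libraries had higher levels than every control and 1 did not. Counted without Rpl3l, replicates 1, 2 and 4 were above all 3 controls for 77 of 77 members. Replicate 3 was the lowest of the 4 transplanted libraries for 77 of 77 members and below all 3 controls for 67. Other short genes, of at most the members' median exon length, had medians of 0.24, 0.18, -0.41 and 0.06 against the control mean in replicates 1 to 4, so replicate 3 was the lowest for these too. The members' medians on the same scale were 1.29, 0.99, -0.28 and 0.63, so in replicate 3 the short genes lay lower than the members. Of these 77 members, those above all controls in replicate 3 were 4: Rpl30 and Rpl37, on chromosome 15, and Rpl10a and Rpl22l1, named after their values were seen. The low Rpl3l, left out of these counts, was also above them there (2.22 FPKM against 0.0189, 0.153 and 0.0473 FPKM). Rpl30 was at 70.8, 61.4, 36.03 and 49.8 FPKM in the transplanted libraries, all above the controls, with a log2 fold change of 1.10 ± 0.20 (limma adjusted p = 0.0115, n = 4 and 3). Rpl37 was at 529.8, 489, 182 and 359 FPKM, again without overlap with the controls (1.30 ± 0.33, limma adjusted p = 0.0387). Rpl22, the leukaemia-associated large-subunit gene, was at 50.7, 39.7, 14.4 and 31.5 FPKM against 18.1, 19.4 and 18.8 FPKM in the controls, and replicate 3 lay below them. Rpl30 and Rpl37 were the only 2 of 78 members called against the controls, beside 4.59% of all genes called higher and 4.6% called lower, and 26 members were higher and 0 lower at an unadjusted p under 0.05, beside 13.2% and 12.8% of all genes. The third by p was Rpl10a (1.06, limma adjusted p = 0.0673). No overlap with the controls was found for 4 members, against 11.5% of all genes higher and 12.9% lower. All 78 log2 fold changes were above 0, with a median of 0.63. They include that of Rpl3l, which passed the threshold only through 8-week Vav knockout and transplanted libraries. Without transplanted replicate 3, 77 of 77 members were called with a median of 0.99, beside 18.3% of all genes called higher and 14.9% lower. Without any 1 control library the count was 0, without transplanted replicate 1, 2 or 4 it was 1, and with the 2 groups alone it was 1 of 77 (2.44% of genes called higher and 2.49% lower). Library quality weights gave 74 (14.2% of genes). This comparison and that of the untransplanted knockouts share the 3 controls of 8 weeks.

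Between transplanted and untransplanted knockouts no member was called, and neither was any other of 11632 genes (0% called higher and 0% called lower); 0 members had an unadjusted p under 0.05. The transplanted libraries were all below the untransplanted for 1 member, Rps27 (2.53% of genes), and all above for 0 (3.46% of genes). All 78 estimates were below 0, with a median of -0.35, and -0.03 without transplanted replicate 3. The smallest p-values were those of Rpl30 (-0.39 ± 0.20), Rps24 (-0.49 ± 0.29) and Rpl24 (-0.42 ± 0.25), with limma adjusted p-values from 0.849 to 0.858. A p that misses the threshold does not show that the groups are alike.

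**Figure D4:**
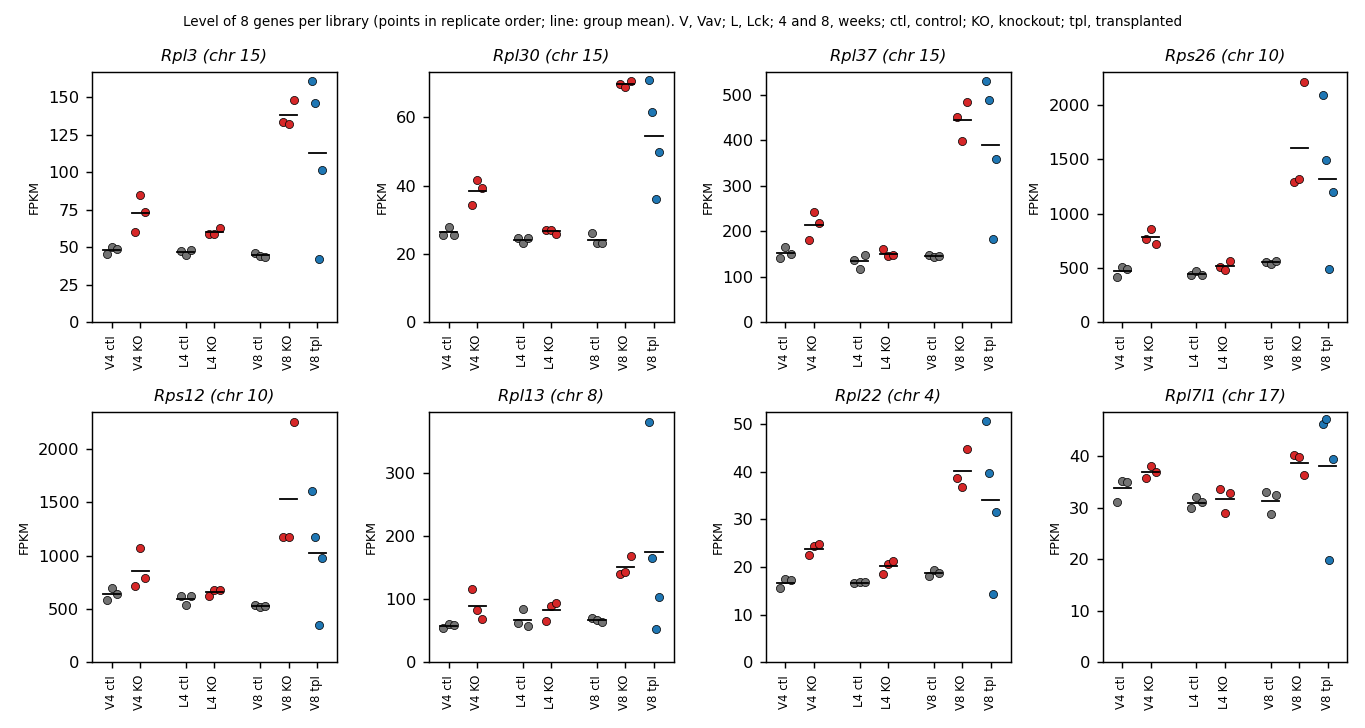
FPKM (vertical axis, from 0) of Rpl3, Rpl30, Rpl37, Rps26, Rps12, Rpl13, Rpl22 and Rpl7l1 in each library, with a line at the group mean. Rps12 is highest in 8-week Vav knockout replicate 3 (2252 FPKM), Rpl13 is highest in transplanted replicate 1 (381 FPKM), and transplanted replicate 3 is the lowest of its group in all 8 panels.

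Members on chromosome 15 had larger values than the rest in the Vav knockouts. Rpl3, Rpl8, Rpl30 and Rpl37 are the 4 members on chromosome 15. In the 4-week Vav knockouts all 4 rose, with a median log2 fold change of 0.55 against 0.31 for the 73 members elsewhere, of which 25 rose. Beside these, 7.63% of all genes and 144 of 416 other chromosome 15 genes were called higher. At 8 weeks the medians were 1.55 and 0.995, and 3 of the 4 against 4 of 74 rose. At that age 4.65% of all genes, near the share of members elsewhere, and 143 of 458 other chromosome 15 genes were called higher. In the transplanted mice they were 1.12 and 0.62, and after Lck-Cre 0.15 and 0.16. Other genes of chromosome 15 had medians of 0.25, 0.55, 0.46 and 0.03 in the same order. Library by library, the median of 289 other chromosome 15 genes exceeded that of the other autosomes by 0.30, 0.28 and 0.31 in the 4-week Vav knockouts and by 0.76, 0.59 and 0.70 in those of 8 weeks. In the transplanted libraries the excess was 0.59, 0.62, 0.56 and 0.60, so replicate 3 carried it as the others did. The 4 members of chromosome 15 exceeded members elsewhere by 0.13, 0.21 and 0.29 in the 4-week Vav knockouts, by 0.62, 0.52 and 0.51 in those of 8 weeks and, in the transplanted libraries, by 0.56, 0.60, 0.46 and 0.49. In the controls and Lck knockouts the excess of other chromosome 15 genes was between -0.01 and 0.03. The part of this shift in the members' change was not tested. The medians of members elsewhere (73 at 4 weeks, 74 at 8 weeks) leave out only the members that lie on chromosome 15. Myc also lies on chromosome 15, and effects of its genes on members elsewhere were not tested.

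A further pair of chromosomes stood out in 1 library each, and these members were named after their values were seen. In 8-week Vav knockout replicate 3, 329 other genes of chromosome 10 exceeded the other autosomes by 0.38, against -0.03 and -0.04 in replicates 1 and 2. The 4 members on chromosome 10 (Rps12, Rps15, Rps26 and Rpl41) exceeded members elsewhere by 0.65 in that library, against 0.06 and 0.05. Rps12, a small-subunit protein, stood at 535, 516 and 527 FPKM in the controls and 1171, 1175 and 2252 FPKM in the knockouts, and Rps26 at 555, 538 and 562 FPKM and 1288, 1322 and 2211 FPKM. Replicate 3 was the highest for both, and replicates 1 and 2 were still above every control. Without replicate 3 the 8-week minus 4-week value of Rps12 was 0.76 (limma adjusted p = 0.0338), and its call was lost in 8 of the 12 fits that left out 1 library. In transplanted replicate 1, 369 other genes of chromosome 8 exceeded the other autosomes by 0.43, against 0.01, 0.001 and -0.03 in replicates 2, 3 and 4. Rpl13, a large-subunit gene on chromosome 8, stood there at 381 FPKM, against 166, 52.6 and 103 FPKM in the others. Rpl13 was also high in 4-week Vav knockout replicate 1 (116 FPKM, against 82.6 and 68.7), where chromosome 8 showed 0.01.

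**Figure D5:**
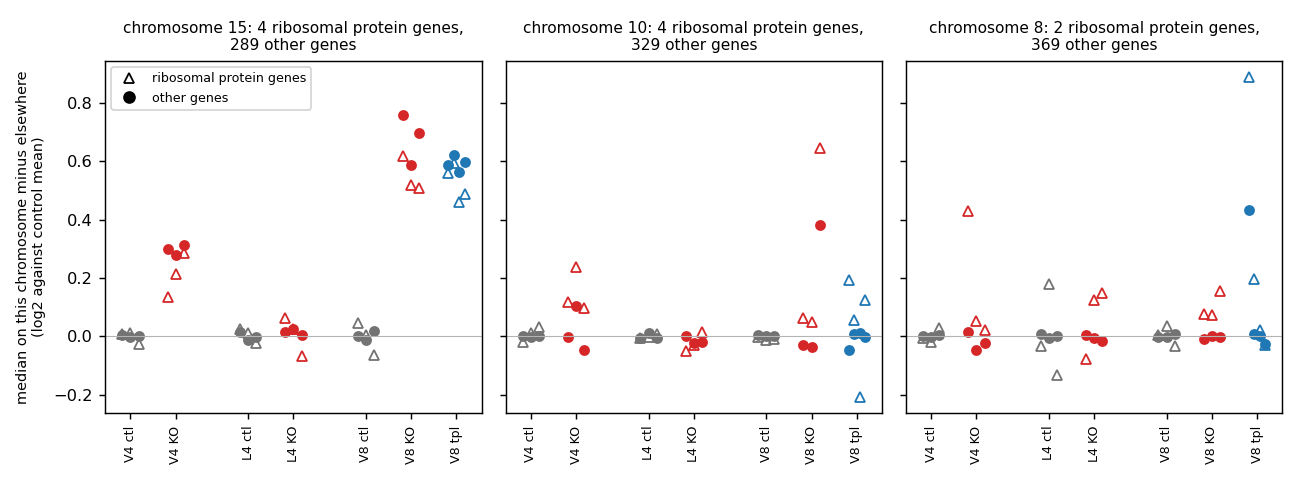
Median log2 level against the control mean on a chromosome minus that elsewhere (vertical axis), for ribosomal protein genes (triangles) and other genes (circles) in each library, on chromosomes 15, 10 and 8. Chromosome 15 is raised in all Vav knockout and transplanted libraries, chromosome 10 in 8-week Vav knockout replicate 3 (0.38 for other genes), and chromosome 8 in transplanted replicate 1 (0.43).

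Paralogues with a parent gene differed widely in level, and all had 8-week values above 0. For Rpl3l this is no separate result, since it passed the threshold only through 8-week Vav knockout and transplanted libraries. Rpl22l1, which can take the place of Rpl22 in the ribosome, was at 5.24, 4.03 and 4.83 FPKM in the 8-week controls and 10.4, 10.97 and 10.6 FPKM in the knockouts, a log2 fold change of 1.04 (limma adjusted p = 0.0589). Rpl22 itself was at 18.1, 19.4 and 18.8 FPKM and 38.7, 36.8 and 44.7 FPKM, a log2 fold change of 1.05 (limma adjusted p = 0.0973). Both were higher in each knockout than in any control, and whether the 2 genes differed in change was not tested. At 4 weeks Rpl22 rose (0.49, limma adjusted p = 0.00757) and Rpl22l1 had a value of 0.19 (limma adjusted p = 0.242). For Rps27 and Rps27l, a copy known as a p53 target, the 8-week values were 0.60 and 0.70. For Rpl7 and Rpl7l1 they were 0.81 and 0.30, for Rpl36a and Rpl36al 1.20 and 0.56, and for Rpl3 and Rpl3l 1.60 and 0.82. Of the copies Rpl22l1, Rps27l, Rpl7l1, Rpl36al and Rpl3l, none was called at 4 or 8 weeks (Rpl3l was not tested at 4), and Rpl36a rose at 4 weeks (0.45, limma adjusted p = 0.0445). Rpl13a, a large-subunit gene, rose at 4 weeks (0.42, limma adjusted p = 0.0101), and Rpl26, which binds p53 messenger RNA, had values of 0.20 at 4 and 0.90 at 8 weeks, neither called. The X-linked Rps4x had values of 0.31 and 1.15, neither called.

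The genes known from anaemia or leukaemia had 8-week values above 0, as the other members did. Rpl5 and Rpl11, which bind the 5S RNA and MDM2, had 8-week log2 fold changes of 1.03 and 0.71, with limma adjusted p-values of 0.067 and 0.0669. The X-linked Rpl10, which joins the large subunit late in its assembly, was at 53.7, 48.7 and 48.8 FPKM in the controls and 90.2, 91.7 and 109 FPKM in the knockouts (0.93 ± 0.36, limma adjusted p = 0.132). Rps19, the gene most often mutated in Diamond-Blackfan anaemia, was at 22.01, 23.03 and 23.00 FPKM and 55.5, 68.4 and 67.1 FPKM (1.44 ± 0.41, limma adjusted p = 0.0589). In each of these 4 genes the knockouts exceeded every control. Rps19 rose at 4 weeks (0.46, limma adjusted p = 0.0179), whereas Rpl5 (0.27), Rpl10 (0.24) and Rpl11 (0.21) were not called then. Rps14, of the small subunit, and Rpl35a had 8-week values of 0.88 and 0.50, neither called. Rps6, the substrate of the S6 kinases, had values of 0.32 at 4 weeks and 0.9997 at 8 weeks, neither called.

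Other genes of translation were read from lists chosen with earlier results of these data known. Of all genes tested, 7.63% were called higher in the 4-week Vav knockouts and 0.201% after Lck-Cre. At 8 weeks 4.65% were called higher in the Vav knockouts and 4.59% in the transplanted mice. These shares stand beside every count from the lists. Of 7 ribosomal proteins with other symbols, 2 rose in the 4-week Vav knockouts, Rplp0 (0.52), of the stalk, and Rpsa (0.49), of the small subunit; 0 were called after Lck-Cre, at 8 weeks or in the transplanted mice, where the medians were 0.14, 0.97 and 0.58. Of 20 translation factors, chaperones and RNA-binding proteins whose messages have like starts, 11 rose at 4 weeks in the Vav knockouts, 0 after Lck-Cre, 7 at 8 weeks and 6 in the transplanted mice, and none fell. On chromosome 15 lie 7 of the 20. Among these were 7 of the 11 calls at 4 weeks, all 7 of the 8-week calls and 6 of 6 in the transplanted mice. At 4 weeks the median was 0.46 on chromosome 15 and 0.34 elsewhere. Pabpc1, the poly(A)-binding protein, had log2 fold changes of 0.92 and 1.95, and Eif3e, an initiation factor subunit, of 0.57 and 1.62, all called. Off chromosome 15, Npm1, a nucleolar chaperone, rose at 4 weeks (0.57) and had a value of 1.60 at 8 weeks (limma adjusted p = 0.0676).

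Among 8 snoRNA host genes tested of 11 listed, whose transcripts carry guides for ribosomal RNA modification, 2 rose at 4 weeks, 0 after Lck-Cre, 5 at 8 weeks and 5 in the transplanted mice. Gas5 and Zfas1 had 8-week log2 fold changes of 0.86 and 1.32 (limma adjusted p = 0.0242 and 0.0122); Snhg15 (1.20), Epb41l4aos (1.19) and Snhg5 (0.51) were the other 3 at that age. In the transplanted mice the 5 were Gas5, Zfas1, Snhg15, Epb41l4aos and Snhg6. Of 13 chaperones and assembly helpers only Grwd1, a nucleolar chaperone, rose (0.56 at 4 weeks), and at 8 weeks it had a value of 1.08 (limma adjusted p = 0.158). Of 14 growth control genes, 4 rose and 1 fell at 4 weeks in the Vav knockouts, 0 were called after Lck-Cre, and 2 rose at 8 weeks and 3 in the transplanted mice. Those that rose at 4 weeks were Myc, the growth-promoting transcription factor (1.51), Rps6ka1, a kinase (0.65), Trp53 (0.30) and Rptor, a subunit of the mTOR complex (0.24). At 8 weeks they were Myc and Rptor (0.52), and in the transplanted mice Myc, Rptor and Rps6ka1. Myc was at 0.945, 0.734 and 0.787 FPKM in the 8-week controls and 16.5, 13.7 and 15.8 FPKM in the knockouts, a log2 fold change of 3.16 ± 0.71 (limma adjusted p = 0.0277); it lies on chromosome 15. Rps6kb1, an S6 kinase, fell by 0.28 on the log2 scale at 4 weeks (limma adjusted p = 0.0118). Of the RNA polymerase I and III subunits, 6 of 14 rose at 4 weeks, 0 of 14 after Lck-Cre, 3 of 15 at 8 weeks (Polr1a, 1.33, and Polr1b, 1.73, among them) and 2 of 15 in the transplanted mice (Polr1b among them). Mitochondrial ribosomal proteins, encoded by separate genes, had medians of 0.12, 0.06, 0.30 and 0.13 in the 4 comparisons with controls, and at 4 weeks 8 of 77 (Vav) and 0 of 77 (Lck) rose, and at 8 weeks 3 of 76 (Mrpl4, Mrps5 and Mrps27) and, in the transplanted mice, 1 of 76 (Mrpl4); 1 fell, at 4 weeks in the Vav knockouts (Mrps6, -0.57). Beside the shares of all genes called higher (7.63%, 0.201%, 4.65% and 4.59% in the same order), the counts of mitochondrial ribosomal proteins did not stand out. Other short protein-coding genes had 8-week medians of 0.13 in the knockouts and 0.001 in the transplanted mice.

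Named pseudogenes of the members, which share their sequence, had a median of 0.55 at 4 weeks in the Vav knockouts (17 of 33 rose, beside 7.63% of all genes) and 0.63 at 8 weeks (3 of 59 rose, beside 4.65%). After Lck-Cre their median was -0.02, with 14 of 29 above 0, 15 below and 0 called, while the members' median was 0.16. Rpl3-ps1, a copy of Rpl3, had a 4-week log2 fold change of 0.69 (limma adjusted p = 0.0124). Reads of such copies and of the members cannot be told apart where their sequence is the same.

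Among the genes whose pattern over the 22 libraries was most like the members' mean were Rack1 (Pearson r = 0.996), Eef1a1 (r = 0.995), Rplp0 (r = 0.994) and Rpsa (r = 0.993). The search covered 6264 other genes that averaged at least 5 FPKM, with each table centred on its controls. Rack1, Rplp0 and Rpsa are themselves ribosomal proteins under other symbols, and Eef1a1 is the elongation factor that brings tRNA to the ribosome. Rack1 stood at 85.8, 79.7 and 89.5 FPKM in the 8-week controls, 156, 169 and 178 FPKM in the knockouts and 198, 165, 74.6 and 141 FPKM in the transplanted mice, with transplanted replicate 3 again below the controls.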

How the data were processed

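Total RNA of CD45.1+ CD4+CD8+ thymocytes was isolated with RNeasy kits, and the NuGEN Ovation Ultralow kit gave the libraries, per the labels' protocols. Values are FPKM, which the authors deposited per gene in 3 tables of 43430 genes: Vav groups at 4 weeks, Lck groups at 4 weeks, and 8-week groups. Trimmomatic 0.33, STAR, HTSeq 0.6.1, DESeq2 and the build mm10 are named in the submitters' processing notes, with no role or order; the gene lengths and strand setting behind the FPKM are not given in the sources used here. Columns were matched to samples by name, with 0 columns of sample values unused, and 42462 identifiers matched a symbol in the GENCODE annotation of the same build, which gave positions. No libraries were identical (0 pairs).

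FPKM hides read totals; from the lowest values they were inferred at 5.49 to 37.5 megareads per library, and every member other than Rpl3l held at least 51.7 inferred reads. Values were tested as log2(FPKM + 1), a scale that understates changes of low genes, with limma 3.58.1 (trend) in R 4.3.3, over genes that reached 1 FPKM in 3 or more libraries (in both tables where 2 were fitted together), with Benjamini-Hochberg adjustment over all of them and calls at an adjusted p under 0.05. The fit was tested on simulated data. The 4-week comparisons used 6 libraries, the 8-week ones 1 fit of 10, and the differences of effects 12 as an interaction, since the tables were normalized separately. Alternatives changed the pseudocount, filter, scaling, variance model, block and libraries, as given in the closing section.

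The members and gene lists were chosen with earlier results of these data known. Members are named if on chromosome 15, if part of a paralogue pair, if known from anaemia or leukaemia, if among the 6 called with the largest change in a direction (or the 3 with the smallest p where fewer than 3 were called), if among the 3 highest or lowest in level, or if nearest the threshold; some that this rule names are not reported here. Shared stretches were counted as 50-base words of GENCODE transcripts. Promoters came from RefSeq (GRCm38.p6).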

Additional observations from a re-analysis of the deposited data

Results flagged for a closer look

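Rpl3l in the transplanted group had 1 library far from the other 3: replicate 3 stood at 2.22 FPKM against 0.390, 0.136 and 0.144 FPKM, and this gap was 0.878 of the group's range. It was the 1 such case among 80 sets of 4 values looked at (78 members, their median and their summed share), where chance alone flags about 1 in 20. For each of the other 77 members replicate 3 was the lowest of the 4 libraries.

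The effect of E2a loss was compared between groups of mice in 2 tests of the difference itself. In both, the Cre driver or the age cannot be told apart from the table. For Vav against Lck at 4 weeks, 2 of 77 members (2.6%) were called with a larger Vav effect, near the 1.65% of all genes. They were Rpl8, on chromosome 15, and Rpl35, which shares most of its sequence with other genes. The count was 0 without Vav control replicate 3 or with the replicate block. For 8 against 4 weeks, 70 of 77 members had a larger Vav effect at 8 weeks, beside 8.87% of all genes.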

How the results depend on the processing

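No member changed direction among the results called. Members called higher in the 4-week Vav comparison were 12 without a filter, and 17 and 16 with libraries scaled to the same FPKM sum or to the same sum of the other genes, against 29; leaving out 1 library gave 4 to 31. For Lck at 4 weeks (1 called) the count was 0 without a filter, with either sum scaling and with median-of-ratios scaling, 2 at a mean of 5 FPKM or more and with array weights, and 0 to 0 with 1 library left out. For Vav at 8 weeks (7 called) it was 1 without a filter, 16 and 17 with the sum scalings, 11 with median-of-ratios and 26 with quantile scaling, 78 with array weights and 77 with the 2 groups alone; leaving out 1 library gave 1 to 76. For the transplanted mice (2 called) it was 1 without a filter or with the 2 groups alone, 4 with quantile scaling, 74 with array weights, and 0 to 77 with 1 library left out. For Vav minus Lck (2 called) it was 1 without a filter, 5 with array weights, and 0 to 5 with 1 library left out. For 8 minus 4 weeks (70 called) it was 53 to 75 under every alternative. Called under every alternative were 3 of 29, 0 of 1, 1 of 7, 0 of 2, 0 of 2 and 49 of 70 members.

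Replicate numbers did not pair the samples: deviations of same-numbered libraries correlated above 0.1 in 3 of 15 pairs (-0.25 to 0.36). With the replicate block, 20, 0, 1, 1, 0 and 66 members were called in these comparisons. As percent of protein-coding FPKM, the summed level was 8.19, 10.0015, 7.59, 8.40, 8.25, 14.9 and 12.7 in the 7 groups, against 7.06, 8.65, 6.41, 6.76, 6.98, 13.2 and 10.9 of all FPKM. Whether depth limits any member was not tested; the lowest member other than Rpl3l held 51.7 inferred reads.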
